A study of Mus musculus with 24 samples.

Results

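The large hyaluronan-binding proteoglycans of cartilage, the link proteins that fix them to hyaluronan and a set of proteins that chondrocytes secrete were followed across 6 populations of cells sorted from mouse bone. The 9 genes were Acan, Hapln1, Hapln3, Vcan, Prg4, Cytl1, Chad, Ucma and Mia, found by their symbol among the 21948 protein-coding genes kept, and all 9 passed the filter on low values described below. RNA came from 24 libraries, 4 for each population, of male mice on postnatal day 10 that the labels give as genotype WT. Every population lacked CD31, TER119, CD45, Thy, 6C3 and CD105 on the surface and carried CD200. EMB, the surface protein embigin, split each source into EMB+ and EMB- cells.

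The spine gave 4 populations. Vertebral GFP+ EMB+ and vertebral GFP+ EMB- cells carried a GFP that the series text ties to Zic1-cre, which marks cells with a history of Zic1 activity, while vertebral GFP- EMB+ and vertebral GFP- EMB- cells did not. Femur and tibia gave the other two, long bone EMB+ and long bone EMB- cells, which were all GFP-. The Cre that makes GFP is not named in the genotype label, no treatment is given, and GFP can stay on after Zic1 is off, so it marks lineage and not present Zic1. The titles of the 4 vertebral GFP- EMB+ libraries give another population, and the cell type label was followed. Titles call the replicates biological, and no label gives each an animal of its own, so p-values here cover only the spread among these libraries, which may be technical.

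Aggrecan, the product of Acan, carries many chondroitin sulfate chains, whose charge holds water in cartilage. Its head binds the sugar polymer hyaluronan, and a link protein clamps that bond. Versican, the product of Vcan, is a relative of aggrecan that binds hyaluronan in the same way and is found in loose connective tissue and in the mesenchyme that precedes cartilage. Lubricin, the product of Prg4, is the slippery proteoglycan of the joint surface.

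The lecticans, as aggrecan and versican are called, lie each beside a link protein gene. Acan lies on chromosome 7 at chr7:79053483-79115099 (GRCm38, plus strand), and Hapln3 at chr7:79115102-79131018 on the minus strand, so that their ends face each other across 2 bases. Hapln1 at chr13:89540636-89611832 (plus strand) and Vcan at chr13:89655312-89742509 (minus strand) also face each other. In GENCODE M21, where Hapln1 spans 89539796-89611652, 43659 bases lie between them. The other genes lie at chr1:150449412-150466165 (Prg4, minus strand), chr5:37735519-37739820 (Cytl1, plus strand), chr11:94565047-94569127 (Chad, plus strand), chr2:4976122-4985748 (Ucma, plus strand) and chr7:27179742-27181157 (Mia, minus strand). Some of them share sequence with another gene. Chad lies wholly within Acsf2, which is read from the opposite strand and stood at 3.79 to 12.7 FPKM over the libraries, and Prg4 overlaps 524 bases of Tpr, also on the opposite strand, at 11.0 to 36.4 FPKM. The library kit does not mark the strand, so reads in the shared stretches cannot be assigned to 1 gene. Mia overlaps 1345 bases of Gm21983 on its own strand, listed at 0.695 FPKM at most, and Vcan overlaps 3050 bases of the antisense gene Gm4117, which is not among the protein-coding genes, as is the pseudogene Gm8546, with 1264 bases within Hapln1.

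**Figure D1:**
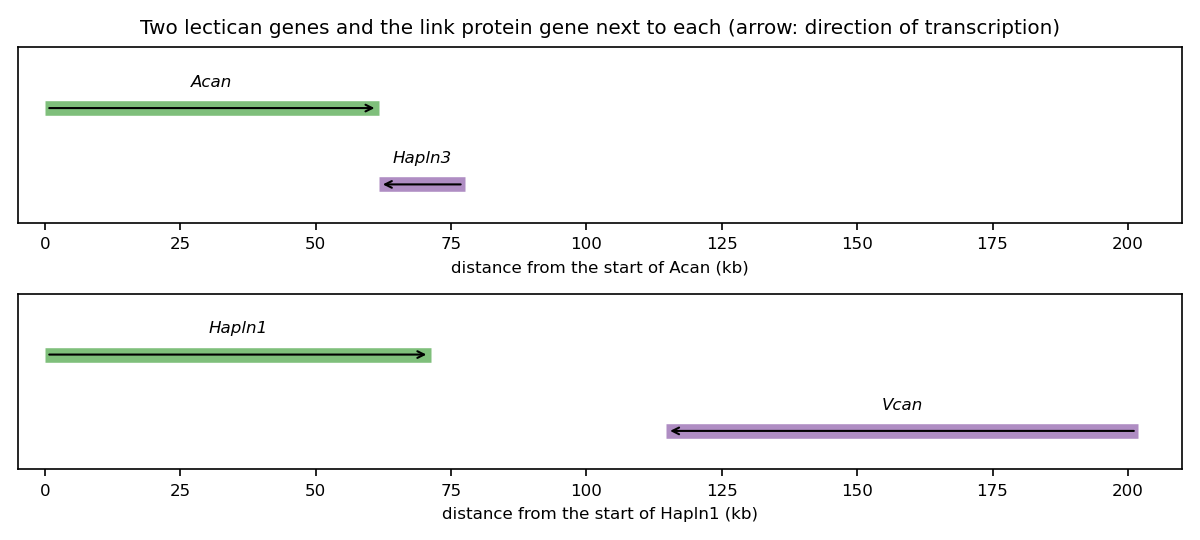
Position of the lectican genes Acan and Vcan and of the link protein gene beside each, as distance in kb from the start of the left gene. Bars are whole genes as placed in the deposited data, and arrows give the direction of transcription. In both pairs the ends face each other, in GENCODE M21 2 bases apart for Acan and Hapln3 and 43659 for Hapln1 and Vcan.

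The promoters of the 2 lecticans, of cartilage link protein and of Cytl1 are shown because these genes went opposite ways between EMB states in vertebral cells. Each runs 5′ to 3′ on the gene's own strand from 250 bases before the RefSeq start to 50 after it (GRCm38.p6), and capitals mark CG dinucleotides. The windows are chr7:79052976-79053275 (plus) for Acan, chr13:89742463-89742762 (minus) for Vcan, chr13:89540386-89540685 (plus) for Hapln1 and chr5:37735269-37735568 (plus) for Cytl1.
Acan: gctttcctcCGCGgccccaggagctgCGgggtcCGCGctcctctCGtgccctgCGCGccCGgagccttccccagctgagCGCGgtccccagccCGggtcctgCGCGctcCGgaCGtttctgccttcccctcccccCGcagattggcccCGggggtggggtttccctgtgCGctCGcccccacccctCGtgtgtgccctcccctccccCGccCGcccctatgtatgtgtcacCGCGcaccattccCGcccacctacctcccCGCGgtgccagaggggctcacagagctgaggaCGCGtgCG
Vcan: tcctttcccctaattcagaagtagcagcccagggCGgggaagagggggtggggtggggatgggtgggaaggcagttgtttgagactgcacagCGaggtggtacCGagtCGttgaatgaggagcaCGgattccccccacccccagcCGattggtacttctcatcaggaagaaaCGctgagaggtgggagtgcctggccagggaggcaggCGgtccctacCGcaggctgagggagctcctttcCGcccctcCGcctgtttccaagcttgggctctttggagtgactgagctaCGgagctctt
Hapln1: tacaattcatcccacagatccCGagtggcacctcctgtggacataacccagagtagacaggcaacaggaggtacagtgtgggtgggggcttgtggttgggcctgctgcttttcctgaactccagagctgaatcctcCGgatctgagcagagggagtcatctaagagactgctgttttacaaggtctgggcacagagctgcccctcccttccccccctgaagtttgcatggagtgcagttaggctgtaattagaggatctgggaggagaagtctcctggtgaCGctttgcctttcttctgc
Cytl1: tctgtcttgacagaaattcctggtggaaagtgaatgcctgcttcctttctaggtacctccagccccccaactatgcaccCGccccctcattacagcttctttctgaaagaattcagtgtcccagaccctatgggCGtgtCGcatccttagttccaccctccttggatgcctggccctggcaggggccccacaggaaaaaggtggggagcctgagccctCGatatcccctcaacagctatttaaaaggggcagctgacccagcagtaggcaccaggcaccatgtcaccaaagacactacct

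The 4 sequences differ in their content of CG. The Acan window holds 31 CG dinucleotides and is 74.0% G or C, and 10.6% of 32851 promoters of this length in RefSeq hold as many or more. The Vcan window holds 12 (61.0% G or C), that of Hapln1 3 (54.3%) and that of Cytl1 4 (55.0%), beside a median of 7 and 52.7% over all promoters. Among the other 4 genes with a promoter in the table the number was 9 in Hapln3, 13 in Chad, 4 in Ucma and 6 in Mia. Prg4 had no entry. TATAAA, the core of the TATA box, was searched on both strands and is in 13.6% of all these promoters. It was found in Chad 28 bases before the start and in Hapln3 239 bases before it, where it overlaps the only AACAAT, a core motif of SOX proteins that 10.7% of promoters hold. Neither motif was found in these windows of the other 6 genes.

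Values are FPKM, fragments scaled to the length of the transcript and to library size. Levels can be set side by side between genes only roughly, since libraries differed by transcript length, as given below. The number of reads behind the values is unknown. Changes are differences in log2(FPKM + 1), which understates the change of low genes, and a gene changed when its adjusted p in limma was under 0.05 after Benjamini-Hochberg adjustment over the 11767 genes that reached an FPKM of 1 in 4 libraries or more. In bulk samples, fewer cells of a type and less RNA per cell cannot be told apart. The 9 genes together held 0.913% to 3.23% of the summed FPKM of a library. Emb stood at 30.1 to 56.5 FPKM in every EMB+ library, the 4 with another title included (44.4 to 55.3), and at 1.32 or less in every EMB- library. Genes of the erythroid marker list summed to 20877 to 44045 FPKM in long bone EMB- and 7526 to 12736 in vertebral GFP- EMB- libraries, and to at most 989.9 in the others. None of the 5 endothelial markers passed the filter. The median gene was shifted by 0.32 in EMB+ against EMB- vertebral GFP+ cells, by 0.30 in vertebral GFP- and by 0.076 in long bone cells. Median-ratio scaling, which removes these shifts, is given beside a change of the 9 genes where it ended or turned it. For lists of other genes it is given mostly as counts, and a single gene named from them may not keep its call. Long bone EMB- replicate 4 stood apart: its correlation with the other 3 libraries of its group was 0.925 to 0.944, where those 3 had 0.970 to 0.982 with each other and no pair of libraries in another group was below 0.978.

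**Figure D2:**
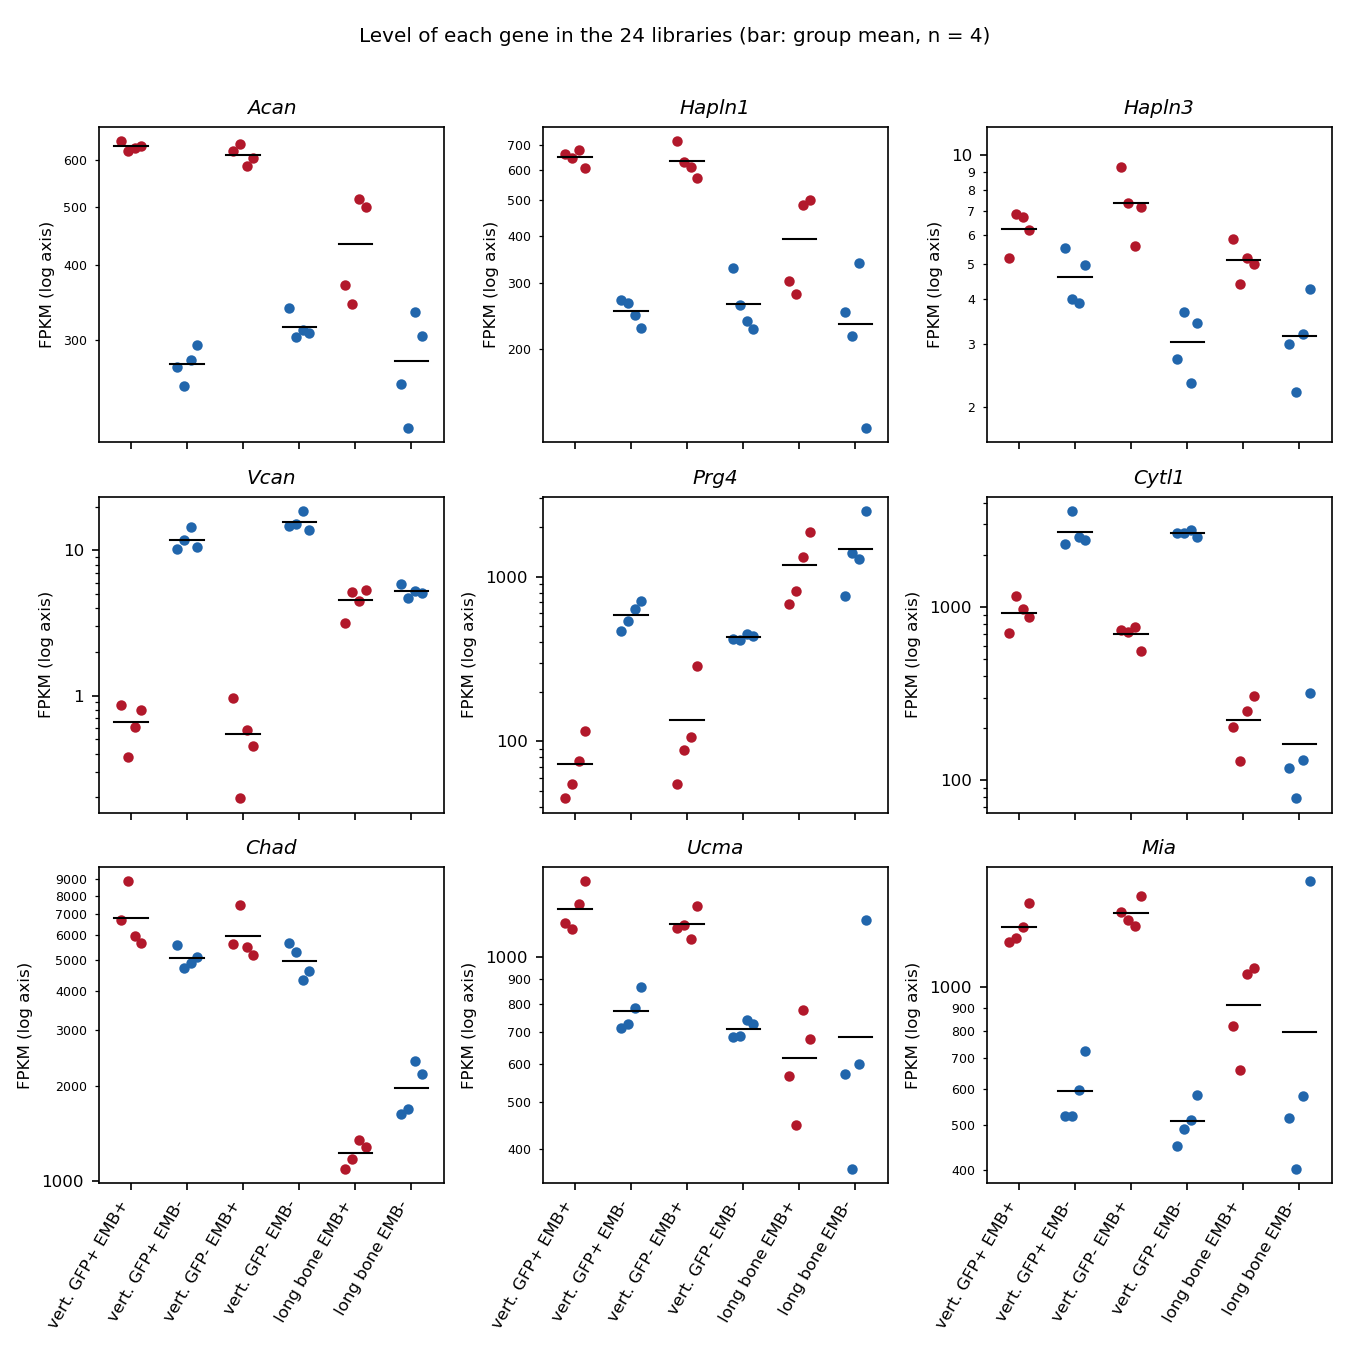
FPKM of each of the 9 genes in the 24 libraries (log axis, n = 4 in each group, red EMB+, blue EMB-). Bars are group means: Acan and Hapln1 are highest in vertebral EMB+ cells, Vcan and Cytl1 in vertebral EMB- cells, Prg4 in long bone cells, and Chad in the vertebral groups.

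Aggrecan RNA was higher in EMB+ than in EMB- cells at both sites. Acan stood at 646, 621, 629 and 634 FPKM in vertebral GFP+ EMB+ replicates 1 to 4, and at 269.8, 252, 277 and 295 in the EMB- libraries of that lineage. The vertebral GFP- libraries gave 621, 638, 586 and 606 in EMB+ and 339, 304, 311 and 308 in EMB- cells. Long bone libraries gave 371, 345, 516 and 501 in EMB+ and 253, 214, 334 and 304 in EMB- cells. The EMB+ and EMB- libraries did not overlap in any of the 3 sources. In vertebral GFP+, vertebral GFP- and long bone cells Acan rose by 1.21 (SE 0.13, adjusted p = 7.75e-08), 0.96 (SE 0.13, adjusted p = 2.14e-06) and 0.65 (SE 0.13, adjusted p = 0.000483). The long bone value did not pass when only the 8 long bone libraries were fitted (adjusted p = 0.0627), and the difference between the changes in vertebral GFP- and long bone cells did not pass either, at 0.31 (SE 0.19, adjusted p = 0.225), and was -0.015 after median-ratio scaling. In order of level, the vertebral EMB+ groups (633 ± 10.4 and 613 ± 22.0 FPKM, SD, n = 4, overlapping) were followed without overlap by long bone EMB+ (433 ± 88.0) and then by the 3 EMB- groups, of which neighbours overlapped.

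Cartilage link protein RNA followed aggrecan RNA. Hapln1 stood at 663, 648, 679 and 608 FPKM in vertebral GFP+ EMB+ and 271, 265, 247 and 227 in vertebral GFP+ EMB- libraries. In vertebral GFP- cells it stood at 719, 629.8, 613 and 573 with and 329.8, 262, 237 and 227 without EMB. Both vertebral pairs of groups were apart. Hapln1 rose by 1.36 (SE 0.22, adjusted p = 1.54e-05) and 1.27 (SE 0.22, adjusted p = 2.96e-05). Long bone EMB+ libraries stood at 303, 281, 485 and 501 and EMB- libraries at 251, 217, 339.8 and 123, and these overlapped: EMB- replicate 3 lay above EMB+ replicates 1 and 2, and EMB- replicate 4 was the lowest of all 24 libraries. The long bone change was 0.79 (SE 0.22, adjusted p = 0.00592) and did not pass in the fit of long bone libraries only (adjusted p = 0.118). Without EMB- replicate 4 it was 0.52 (adjusted p = 0.0193). The difference between vertebral GFP- and long bone changes was 0.48 (SE 0.31, adjusted p = 0.249), and it passed without long bone EMB- replicate 4, at 0.75 (adjusted p = 0.0143).

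The FPKM of Acan was close to that of Hapln1 in most libraries. Acan over Hapln1 averaged 0.976 ± 0.0496 (SD, n = 4) with EMB and 1.09 ± 0.155 without it in vertebral GFP+ cells, and 0.972 ± 0.0837 with and 1.21 ± 0.152 without it in vertebral GFP- cells. In long bone it was 1.13 ± 0.115 in EMB+ libraries, and 1.01, 0.984, 0.983 and 2.48 in EMB- replicates 1 to 4. The log2 ratio, EMB+ minus EMB-, differed by -0.15 in vertebral GFP+, -0.32 in vertebral GFP- and -0.15 in long bone cells, with p = 0.229, 0.0571 and 0.971 in an exact two-sided permutation test (adjusted over 6 ratio tests, 0.274, 0.0857 and 0.971). None of these passed, and without long bone EMB- replicate 4 the long bone value was 0.18.

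The other link protein gene, Hapln3, was far lower and did not pass in every source. It stood at 5.20, 6.85, 6.73 and 6.21 FPKM in vertebral GFP+ EMB+ and 5.54, 3.99, 3.90 and 4.98 in vertebral GFP+ EMB- libraries, which overlapped, with a difference of 0.38 (SE 0.16, adjusted p = 0.0517). This passed narrowly without any 1 of 7 libraries (0.0306 to 0.0496), namely vertebral GFP+ EMB- or EMB+ replicate 1, vertebral GFP- EMB- replicate 3, vertebral GFP- EMB+ replicate 1 or 3 and long bone EMB- replicate 2 or 4, and it was 0.049 after median-ratio scaling (0.857). Vertebral GFP- libraries gave 9.25, 7.36, 5.59 and 7.18 in EMB+ and 2.72, 3.68, 2.34 and 3.42 in EMB- cells, without overlap, and Hapln3 rose by 1.04 (SE 0.16, adjusted p = 7.42e-06). In long bone it stood at 5.86, 4.40, 5.20 and 4.98 in EMB+ and 3.00, 2.20, 3.19 and 4.25 in EMB- libraries, also apart. The rise was 0.57 (SE 0.16, adjusted p = 0.00702), which did not pass in the fit of long bone libraries only (0.0542). In the GENCODE annotation 2 bases lie between the end of Hapln3 and that of Acan on the opposite strand, and the reads carry no strand.

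Versican went the other way in vertebral cells. Vcan stood at 0.862, 0.378, 0.608 and 0.795 FPKM in vertebral GFP+ EMB+ and at 10.2, 11.8, 14.4 and 10.6 in vertebral GFP+ EMB- libraries. With GFP- cells the values were 0.967, 0.197, 0.585 and 0.449 in EMB+ and 14.8, 15.3, 18.6 and 13.8 in EMB- libraries. Every vertebral EMB+ library was below 1 FPKM and every vertebral EMB- library above 10 FPKM. Mean FPKM was 17.8 times lower in GFP+ EMB+ and 28.4 times lower in GFP- EMB+ cells, and Vcan fell, with changes of -2.94 (SE 0.16, adjusted p = 2.22e-13) and -3.44 (SE 0.16, adjusted p = 6.65e-15). Long bone cells showed no such split, with 3.18, 5.16, 4.47 and 5.32 FPKM in EMB+ and 5.85, 4.70, 5.24 and 5.07 in EMB- libraries, which overlapped, and the change was -0.18 (SE 0.16, adjusted p = 0.402). Set against the long bone change, that of vertebral GFP- cells differed by -3.26 (SE 0.23, adjusted p = 1.65e-10). The order of means was vertebral GFP- EMB- (15.6 ± 2.10 FPKM), vertebral GFP+ EMB- (11.8 ± 1.88, overlapping the former), both long bone groups (5.22 ± 0.480 in EMB- and 4.53 ± 0.977 in EMB+ cells, overlapping each other) and both vertebral EMB+ groups (0.661 ± 0.217 in GFP+ and 0.549 ± 0.321 in GFP- cells, overlapping each other).

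Set against aggrecan in the same library, the FPKM of versican was 4.32% ± 0.748 of that of Acan in GFP+ and 4.97% ± 0.740 in GFP- cells of the vertebral EMB- groups. It was 0.104% ± 0.0328 and 0.0901% ± 0.0522 in the matching EMB+ groups. In long bone it was 1.94% ± 0.374 in EMB- and 1.07% ± 0.299 in EMB+ cells. EMB+ and EMB- libraries were apart in all 3 sources: the lowest long bone EMB- library had 1.57% and the highest EMB+ library 1.50%. The log2 ratio of FPKM + 1, EMB+ minus EMB-, was -4.15 in vertebral GFP+, -4.39 in vertebral GFP- and -0.83 in long bone cells. Each had p = 0.0286 in the exact two-sided permutation test, the smallest p that 4 against 4 libraries can give, and none passed after adjustment over the 6 ratio tests (0.0571). The percentages do not depend on the scaling of a library, while the log2 ratios do, since 1 is added to each FPKM and Vcan was below 1 FPKM in vertebral EMB+ cells.

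Lubricin RNA was lower in EMB+ vertebral cells and highest in long bone. Prg4 stood at 44.9, 54.9, 75.7 and 116 FPKM in vertebral GFP+ EMB+ and 467, 539, 635 and 713 in vertebral GFP+ EMB- libraries. GFP- vertebral libraries held 55.1, 88.3, 106 and 288 in EMB+ and 417, 415, 448 and 437 in EMB- cells. The groups were apart in both lineages, although GFP- EMB+ replicate 4 stood well above the others of its group. Prg4 fell, with changes of -3.07 (SE 0.39, adjusted p = 9.66e-07) and -1.95 (SE 0.39, adjusted p = 0.000245). Long bone libraries held 686, 823, 1329 and 1872 in EMB+ and 760.4, 1394, 1276 and 2512 in EMB- cells, which overlapped over most of their range, and the change was -0.32 (SE 0.39, adjusted p = 0.570), or -0.023 without EMB- replicate 4. The difference between this change in vertebral GFP- cells and in long bone passed, at -1.63 (SE 0.56, adjusted p = 0.0296), but not without vertebral GFP- EMB+ replicate 1 or 2, long bone EMB- replicate 1 or long bone EMB+ replicate 3 or 4 (0.0514 to 0.0725). Replicate 4 held the highest Prg4 value in every group except vertebral GFP- EMB-, and the reason was not tested.

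Most markers of tendon and ligament and of fibroblasts, and some of the joint surface, were lower in EMB+ vertebral cells, as versican and lubricin were. Of all genes, 7.85% were lower in vertebral GFP+ and 10.6% in vertebral GFP- EMB+ cells. Of 7 joint surface and synovial markers, 4 were lower and none higher in vertebral GFP+ EMB+ cells, and 4 were lower and 1 higher in vertebral GFP- EMB+ cells. Of 8 tendon and ligament markers, 7 were lower in each (0 and 1 higher). Cilp and Thbs4 are on both of these lists. Of 10 fibroblast and periosteum markers, 8 were lower in each (1 and 2 higher). The joint surface list summed to 265 to 326 FPKM in vertebral GFP+ EMB+ and 845 to 1039.7 in EMB- libraries, to 201 to 285 and 706 to 912 in vertebral GFP- cells, and to 294 to 475 and 719 to 1099 in long bone cells. In long bone 5 of the 7 joint surface markers were lower in EMB+ cells, where 16% of all genes were lower, while Prg4 and Vcan did not pass. Without long bone EMB- replicate 4, 4 of these markers passed. Some markers from other lists were higher in EMB+ cells. Of all genes, 42.1% were higher in vertebral GFP+, 41.7% in vertebral GFP- and 17.5% in long bone EMB+ cells. Of 6 hypertrophic cartilage markers, 5 were higher in each vertebral lineage (medians of 2.77 and 4.12) and 4 in long bone. Their sum was 1006 to 1171 FPKM in EMB+ and 604 to 647 in EMB- vertebral GFP+ libraries, 1047 to 1261 and 378 to 542 in vertebral GFP- and 1567 to 2415 and 1073 to 1220.2 in long bone libraries. Of 12 osteoblast markers, 6 were higher and 2 lower in vertebral GFP+, 10 and 0 in vertebral GFP- and 6 and 2 in long bone EMB+ cells. Ibsp is on both the hypertrophic and the osteoblast list. Of 7 leukocyte markers tested, 3 were higher in vertebral GFP+, 6 in vertebral GFP- and 2 in long bone EMB+ cells, with 1 lower in long bone. In vertebral GFP+ cells the counts of higher osteoblast and leukocyte markers lay near the share of all genes that were higher. The part of cells of all these types in the levels of the 9 genes was not tested.

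Cytl1, which encodes a small secreted cytokine-like protein of chondrocytes, separated the sites by more than any of the other 8 genes did in EMB- cells. It stood at 2308, 3581, 2552 and 2441 FPKM in vertebral GFP+ EMB- and 2678, 2675, 2789 and 2537 in vertebral GFP- EMB- libraries, and at 118, 78.8, 132 and 318 in long bone EMB- libraries. The lowest vertebral EMB- library was thus far above the highest long bone library. Vertebral minus long bone, Cytl1 differed by 4.24 (SE 0.28, adjusted p = 5.82e-12) for GFP+ and 4.24 (SE 0.28, adjusted p = 1.27e-11) for GFP- EMB- cells, with mean FPKM 16.8 and 16.5 times higher in vertebral cells. EMB+ libraries held 705, 1159, 978 and 877 in vertebral GFP+, 737, 723, 763 and 559.7 in vertebral GFP- and 204, 129.8, 251 and 308 in long bone cells. Cytl1 fell in EMB+ vertebral cells, with changes of -1.55 (SE 0.28, adjusted p = 9.28e-05) in GFP+ and -1.95 (SE 0.28, adjusted p = 3.88e-06) in GFP- cells, without overlap. In long bone the groups overlapped and the change was 0.59 (SE 0.28, adjusted p = 0.110). The long bone change passed without EMB- replicate 4, at 0.99 (adjusted p = 0.00105), and without EMB+ replicate 2, at 0.83 (0.0300). The vertebral GFP- change less the long bone change came to -2.54 (SE 0.40, adjusted p = 4.16e-05).

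Chad encodes chondroadherin, a leucine-rich repeat protein that binds collagen and integrin in cartilage, and was the most abundant of the 9 genes in all vertebral groups. It stood at 6682, 8877, 5977 and 5672 FPKM in vertebral GFP+ EMB+ and 5562, 4736, 4902 and 5127 in vertebral GFP+ EMB- libraries. Vertebral GFP- libraries held 5619, 7481, 5485 and 5207 in EMB+ and 5678, 5320.2, 4319 and 4604 in EMB- cells, which overlapped. Long bone libraries held 1095, 1173, 1345 and 1277 in EMB+ and 1625, 1693, 2390.1 and 2185 in EMB- cells, without overlap and with the higher values in EMB-. Chad fell in long bone EMB+ cells, with a change of -0.68 (SE 0.16, adjusted p = 0.00164). The change was 0.40 (SE 0.16, adjusted p = 0.0380) in vertebral GFP+ and 0.25 (SE 0.16, adjusted p = 0.188) in vertebral GFP- cells. The first of these passed, but became 0.0094 (adjusted p = 0.975) after median-ratio scaling, where the second became -0.16 (0.434). It did not pass without vertebral GFP+ EMB- replicate 2, 3 or 4 or EMB+ replicate 1 or 2 (0.0635 to 0.173), and was 0.27 without EMB+ replicate 2. Less the long bone change, the vertebral GFP- change came to 0.93 (SE 0.22, adjusted p = 0.00296). Vertebral cells held more Chad RNA than long bone cells in all 4 comparisons, by 2.46 (SE 0.16, adjusted p = 1.25e-11) and 2.27 (SE 0.16, adjusted p = 6.73e-11) in GFP+ and GFP- EMB+ cells and by 1.38 (SE 0.16, adjusted p = 8.11e-08) and 1.35 (SE 0.16, adjusted p = 2.16e-07) in EMB- cells.

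Ucma, which encodes a vitamin K-dependent protein of the upper growth plate zone, and Mia, a small protein secreted by chondrocytes and by melanoma cells, were both higher in EMB+ vertebral cells. Ucma stood at 1175, 1142, 1285 and 1434 FPKM in vertebral GFP+ EMB+ and 712, 727, 782 and 868 in EMB- libraries, and at 1147, 1163, 1091 and 1275 and 683, 685, 740.1 and 726 in those of GFP- cells. The EMB groups were apart in both lineages, and the changes were 0.70 (SE 0.22, adjusted p = 0.0100) and 0.72 (SE 0.22, adjusted p = 0.00784). Neither passed after median-ratio scaling, at 0.31 (0.264) and 0.31 (0.240). Long bone libraries held 567, 448, 777 and 676 in EMB+ and 573, 364, 601 and 1192 in EMB- cells, which overlapped, with a change of -0.040 (SE 0.22, adjusted p = 0.909), and of 0.27 without EMB- replicate 4, which did not pass either.

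Mia stood at 1253, 1276, 1348 and 1528 FPKM in vertebral GFP+ EMB+ and 525, 525, 595 and 725 in EMB- libraries. GFP- vertebral cells gave 1454, 1403, 1355 and 1576 in EMB+ and 451, 491, 514 and 583 in EMB- libraries. The groups did not overlap, and Mia rose by 1.20 (SE 0.27, adjusted p = 0.000743) and 1.51 (SE 0.27, adjusted p = 5.03e-05). In long bone it stood at 823, 659.9, 1066 and 1099.9 in EMB+ and 518, 402, 579 and 1699 in EMB- libraries. EMB- replicate 4 was the highest of all 24 libraries, while the other 3 EMB- libraries lay below every EMB+ library. The long bone change was 0.41 (SE 0.27, adjusted p = 0.255), and 0.85 (adjusted p = 6.79e-05) without EMB- replicate 4.

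**Figure D3:**
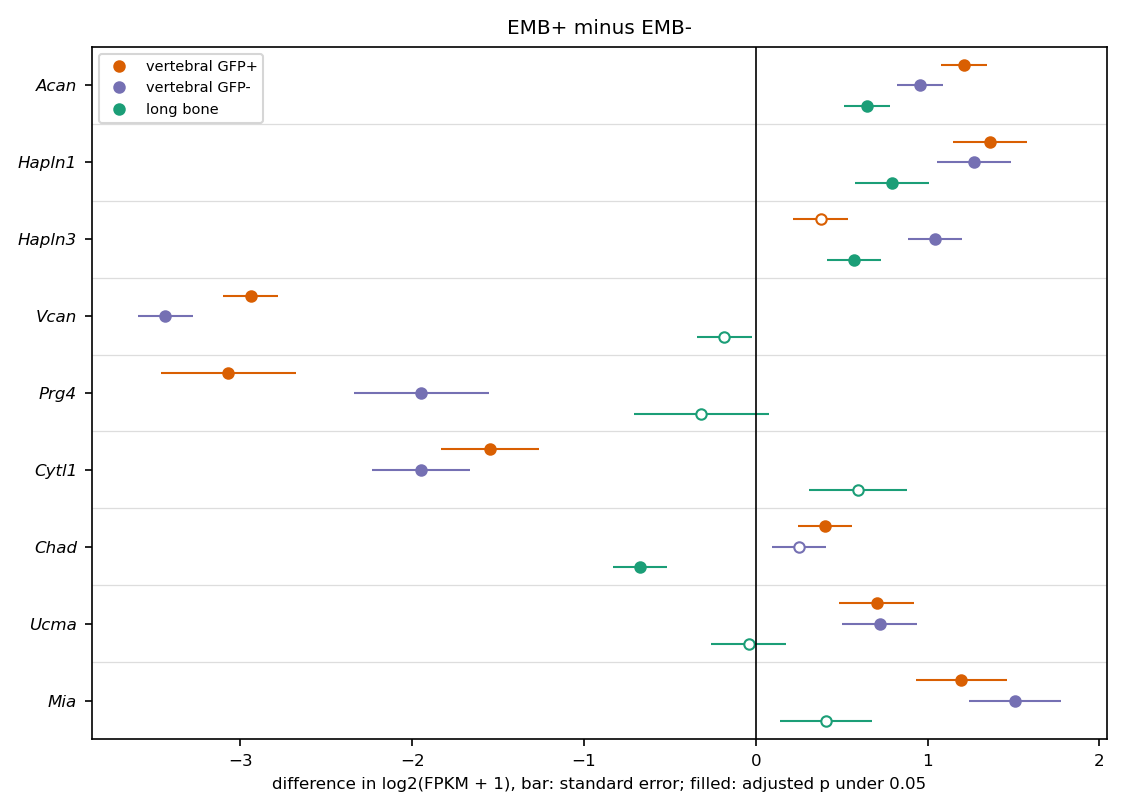
Difference between EMB+ and EMB- cells in log2(FPKM + 1) for each gene, with its standard error, in vertebral GFP+, vertebral GFP- and long bone cells (n = 4 a group, filled points have an adjusted p under 0.05 in limma). Vcan, Prg4 and Cytl1 lie left of 0 in both vertebral lineages, and Chad lies left of 0 in long bone and right of it in vertebral cells, where median-ratio scaling moved it to 0.0094 in GFP+ and -0.16 in GFP- cells.

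The unusual long bone EMB- library differed from its group by transcript length. Its genes whose longest annotated transcript has 1000 bases or fewer (567 genes) lay a median of 0.69 above the group mean of log2(FPKM + 1), and those of 5000 bases or more (2629 genes) a median of -0.31. In the other 23 libraries the median of the short genes lay between -0.38 and 0.14. Mia (962 bases), Cytl1 (974) and Ucma (847) have the shortest transcripts of the 9 genes, and they lay 1.34, 1.17 and 0.94 above the group mean in that library. Prg4 (4263 bases) lay 0.89 above, Hapln3 (3358) 0.36, Chad (1680) 0.17 and Acan (7355) 0.16 above. Vcan (12427 bases) was at -0.031 and Hapln1 (5715) at -0.83. Values given here that leaving it out moved by over 1.5 times, turned or brought past or under the threshold are printed with and without it. Between groups, median changes of the short and the long genes with EMB were 0.28 and 0.33 in vertebral GFP+ cells. They were 0.50 and 0.23 in vertebral GFP- and -0.022 and 0.11 in long bone cells. For GFP+ and GFP- vertebral minus long bone they were -0.21 and -0.0094, and -0.015 and -0.033, in EMB+ cells. In EMB- cells they were -0.51 and -0.23, and -0.58 and -0.21. The part of these shifts in the changes of the 9 genes was not tested.

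**Figure D4:**
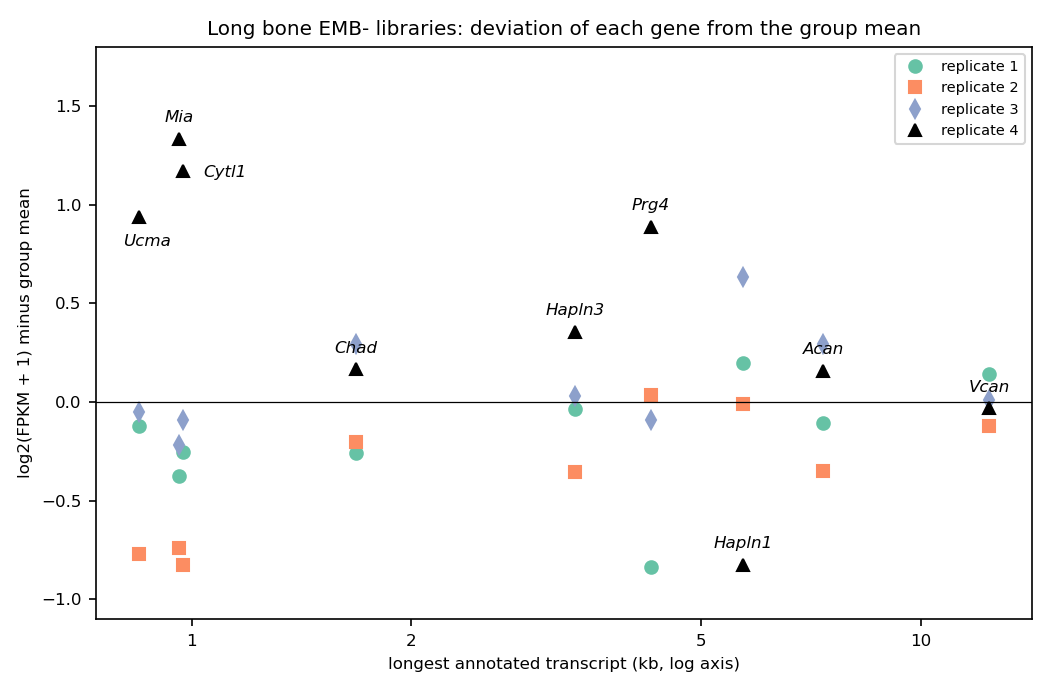
Deviation of each of the 9 genes from the mean log2(FPKM + 1) of the 4 long bone EMB- libraries, against the length of the longest annotated transcript (log axis), with the genes named at replicate 4. Ucma, Mia and Cytl1, all under 1 kb, lie 0.94 to 1.34 above the mean in replicate 4, and Hapln1 lies at -0.83.

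Counted together, 8 of the 9 genes changed between EMB+ and EMB- vertebral GFP+ cells, 5 higher and 3 lower, where 50% of the 11767 genes tested changed (42.1% higher, 7.85% lower). The groups did not overlap for 8 of them, as for 50.6% of all genes. After median-ratio scaling 1523 genes were higher and 1725 lower in place of 4959 and 924, and 6 of the 9 genes changed, 3 in each direction. The share of the 9 genes that were higher was near the background with the deposited scaling and above it after median-ratio scaling, and the share lower was above it with both. In vertebral GFP- cells 8 changed, 5 higher and 3 lower, against 52.3% of all genes (41.7% higher, 10.6% lower). No overlap was seen for 8, against 51.5%. Median-ratio scaling gave 1805 higher and 2322 lower in place of 4903 and 1251 there, with 7 of the 9 changed, 4 higher and 3 lower. In long bone 4 changed, 3 higher (Acan, Hapln1 and Hapln3) and Chad lower, against 33.5% (17.5% higher and 16% lower), and the groups did not overlap for 3, against 24.7%. The scaling turned 2063 higher and 1879 lower genes into 1434 and 2157. In the fit of long bone libraries only, 1 of the 9 changed in long bone, Chad, and without long bone EMB- replicate 4 it was 6, with Cytl1 and Mia added. The median change of the 9 genes was 0.40 in vertebral GFP+, 0.72 in vertebral GFP- and 0.41 in long bone cells, beside medians of 0.32, 0.30 and 0.076 over all genes.

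The EMB changes in the 2 vertebral lineages share no library. None of the 9 genes had a change that differed between them in limma, where 4.87% of all genes did (3.2% higher and 1.67% lower in GFP+), and 2 had an unadjusted p under 0.05, Hapln3 with -0.67 (SE 0.23, adjusted p = 0.103) and Vcan with 0.50 (SE 0.23, adjusted p = 0.283). Hapln3 passed in the fit of the 4 vertebral groups (0.0479) and without long bone EMB- replicate 4 (0.0474). Prg4 differed by -1.12 (SE 0.56, adjusted p = 0.350). Between vertebral GFP- and long bone cells the EMB change differed for 5 of the 9 genes, Chad and Mia higher and Vcan, Cytl1 and Prg4 lower in the vertebral cells, against 29.8% of all genes (24.7% higher, 5.07% lower). Median-ratio scaling left 4 of the 9 and turned 2907 higher and 596 lower genes into 1241 and 1040. The value for Mia was 1.10 (SE 0.38, adjusted p = 0.0301), and it was 0.77 (0.124) after median-ratio scaling, which removed a shift of the median gene by 0.27. Without long bone EMB- replicate 4, where Mia was highest, it was 0.65 (0.0158). It did not pass without vertebral GFP- EMB- replicate 1, vertebral GFP- EMB+ replicate 4 or long bone EMB+ replicate 1 or 2 (0.0513 to 0.0700). Ucma did not pass at 0.76 (SE 0.31, adjusted p = 0.0642), but did without long bone EMB- replicate 2 (0.00590) or long bone EMB+ replicate 3 (0.0406), and was 0.45, which did not pass, without long bone EMB- replicate 4. Hapln3, at 0.47 (SE 0.23, adjusted p = 0.116), passed without long bone EMB- replicate 2 (0.0476).

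None of the 9 genes passed between GFP+ and GFP- vertebral cells in the limma fit of all libraries. In EMB+ cells 0 of the 9 passed in limma, where 2.1% of all genes did (0.391% higher, 1.71% lower), and 0 had an unadjusted p under 0.05. The groups overlapped for all 9, where 8.29% of all genes did not overlap. Within pairs of libraries with the same number, Chad was higher and Prg4 and Mia lower in GFP+ cells in 4 of 4 pairs. Blocking by that number also left 0 of the 9 past the threshold (adjusted p = 0.153 for Prg4). The differences, GFP+ minus GFP-, ran from -0.69 for Prg4 (SE 0.39, adjusted p = 0.764) to 0.40 for Cytl1 (SE 0.28, adjusted p = 0.884). In EMB- cells 0 of the 9 passed, against 8.47% of all genes (2.25% higher, 6.22% lower), and 2 had an unadjusted p under 0.05. These were Hapln3, with 0.47 (SE 0.16, adjusted p = 0.0695), and Vcan, with -0.38 (SE 0.16, adjusted p = 0.170). Hapln3 passed after median-ratio scaling (0.0355), with the replicate number as a block (0.0479) and without long bone EMB- replicate 2 (0.0452) or 4 (0.0332). Acan, Hapln3 and Prg4 did not overlap between the 2 EMB- groups, where 16.8% of all genes did not, with Hapln3 and Prg4 higher in GFP+ and Acan higher in GFP- cells. In 4 of 4 same-numbered pairs of EMB- libraries, Hapln3, Prg4, Ucma and Mia were higher and Acan and Vcan lower in GFP+ cells. A p that misses the threshold does not show equal levels: for Acan in EMB+ cells the difference was 0.047 (SE 0.13, adjusted p = 0.989), and for Prg4 in EMB- cells 0.44 (SE 0.39, adjusted p = 0.666). Prg4 in EMB- cells did pass when only the compared groups were fitted (0.0163). Notochord markers summed to 85.1 to 137 FPKM in vertebral GFP- EMB+ libraries and 11.1 to 20.1 in GFP+ EMB+ libraries, and leukocyte markers to 442 to 3254 and 22.4 to 212; their part in these values was not tested.

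Between vertebral and long bone cells, 7 of the 9 genes differed in EMB+ cells of each lineage, and 5 in GFP+ and 4 in GFP- EMB- cells. After median-ratio scaling these were 7, 7, 6 and 5, and the difference in number between EMB+ and EMB- cells was not tested. GFP+ vertebral against long bone cells differ in GFP as well as in site, and all 4 comparisons reuse the same long bone libraries, so they are given side by side. In EMB+ cells 7 of 9 differed for GFP+ (21.5% of all genes, 8.66% higher and 12.9% lower) and 7 for GFP- cells (19.1%, 8.49% and 10.6%). The sites did not overlap for 8 of the 9 genes in each, against 28.1% and 24.8% of all genes. In both, Acan, Hapln1, Cytl1, Chad and Ucma were higher and Vcan and Prg4 lower in vertebral cells. Acan differed by 0.57 (SE 0.13, adjusted p = 0.00240) and 0.52 (SE 0.13, adjusted p = 0.00573), and Hapln1 by 0.77 (SE 0.22, adjusted p = 0.0101) and 0.73 (SE 0.22, adjusted p = 0.0160). The first Hapln1 value did not pass without long bone EMB+ replicate 2 (0.0551), nor the second without long bone EMB+ replicate 1 or 2 or vertebral GFP- EMB+ replicate 1 (0.0549 to 0.0803). Ucma differed by 1.05 (SE 0.22, adjusted p = 0.000698) and 0.95 (SE 0.22, adjusted p = 0.00224), and Cytl1 by 2.10 (SE 0.28, adjusted p = 2.96e-06) and 1.70 (SE 0.28, adjusted p = 7.22e-05). Mia did not overlap between the sites but did not pass in the fit of all libraries, at 0.59 (SE 0.27, adjusted p = 0.124) and 0.69 (SE 0.27, adjusted p = 0.0741). When only the compared groups were fitted, Mia passed in both (0.0130 and 0.00544). It passed without long bone EMB- replicate 4, which is in neither comparison but enters the shared estimate of spread (0.00216 and 0.000492), the second also without long bone EMB- replicate 2 (0.0432). Hapln3 did not pass, at 0.25 (SE 0.16, adjusted p = 0.310) and 0.44 (SE 0.16, adjusted p = 0.0555), and the second passed without vertebral GFP- EMB+ replicate 3 or long bone EMB- replicate 2 or 4 (0.0231 to 0.0388). The second Hapln3 value also passed when only the compared groups were fitted (0.0488).

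Versican turned its direction between the EMB states. In EMB+ cells Vcan was lower in vertebral than in long bone libraries, with differences of -1.73 (SE 0.16, adjusted p = 7.44e-09) in GFP+ and -1.84 (SE 0.16, adjusted p = 3.18e-09) in GFP- cells, and in EMB- cells it was higher, by 1.03 (SE 0.16, adjusted p = 7.99e-06) and 1.41 (SE 0.16, adjusted p = 1.15e-07). No library of the compared groups overlapped in any of the 4. Prg4 was lower in vertebral cells in all 4, with differences of -3.98 (SE 0.39, adjusted p = 3.53e-08) and -3.29 (SE 0.39, adjusted p = 8.97e-07) in EMB+ and -1.22 (SE 0.39, adjusted p = 0.0128) and -1.66 (SE 0.39, adjusted p = 0.00125) in EMB- cells. The third of these did not pass without long bone EMB- replicate 4, at -0.93 (0.0903), or after median-ratio scaling, at -0.91 (0.0588).

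Among EMB- cells 5 of 9 differed from long bone for GFP+ (47.8% of all genes, 7.4% higher and 40.4% lower) and 4 for GFP- cells (48.2%, 8.05% and 40.2%). The sites did not overlap for 4 of the 9 genes in each, against 36.8% and 35.3%. In both, Vcan, Cytl1 and Chad were higher and Prg4 lower, and Hapln3 was higher in GFP+ cells alone, by 0.44 (SE 0.16, adjusted p = 0.0253) with overlapping libraries. That value did not pass without vertebral GFP+ EMB- replicate 1 or 4 or long bone EMB- replicate 1 or 2 (0.0501 to 0.112). The median gene was shifted by -0.27 and -0.28. Median-ratio scaling turned 871 higher and 4750 lower genes into 2008 and 2804 for GFP+ cells, and 947 and 4728 into 1871 and 2658 for GFP- cells. Of the 9 genes, 6 were then higher and 0 lower for GFP+ and 4 and 1 for GFP- cells. Acan differed by 0.0032 (SE 0.13, adjusted p = 0.987) for GFP+ and 0.21 (SE 0.13, adjusted p = 0.202) for GFP- cells, and after median-ratio scaling by 0.31 (0.0369) and 0.50 (0.00160), which passed. With the deposited scaling, Acan in GFP+ cells differed by 0.056 without long bone EMB- replicate 4 and did not pass. Ucma differed by 0.31 (SE 0.22, adjusted p = 0.256) and 0.19 (SE 0.22, adjusted p = 0.502), and without long bone EMB- replicate 4 by 0.62 (0.00152) and 0.50 (0.00878), which also passed. The first also passed after median-ratio scaling, at 0.62 (0.0135). Hapln1 differed by 0.20 (SE 0.22, adjusted p = 0.462) and 0.26 (SE 0.22, adjusted p = 0.344), and without that library by -0.070 and -0.019, and did not pass either way. Mia differed by -0.20 (SE 0.27, adjusted p = 0.578) for GFP+ cells, by 0.25 without that library and by 0.11 after median-ratio scaling, and did not pass. Mia, at -0.41 (SE 0.27, adjusted p = 0.218) in GFP- cells, was 0.038 without long bone EMB- replicate 4 and passed without long bone EMB- replicate 2, at -0.65 (0.0443). Hemoglobin genes held 6.88% ± 1.74 of the summed FPKM in long bone EMB- cells, 2.34% ± 0.485 in GFP- and 0.170% ± 0.0765 in GFP+ vertebral cells without EMB. Skeletal muscle markers summed to 337 to 813 FPKM in long bone EMB-, 33.7 to 42.4 in GFP- and 31.1 to 41.0 in GFP+ vertebral EMB- libraries. The part of either in these differences was not tested.

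**Figure D5:**
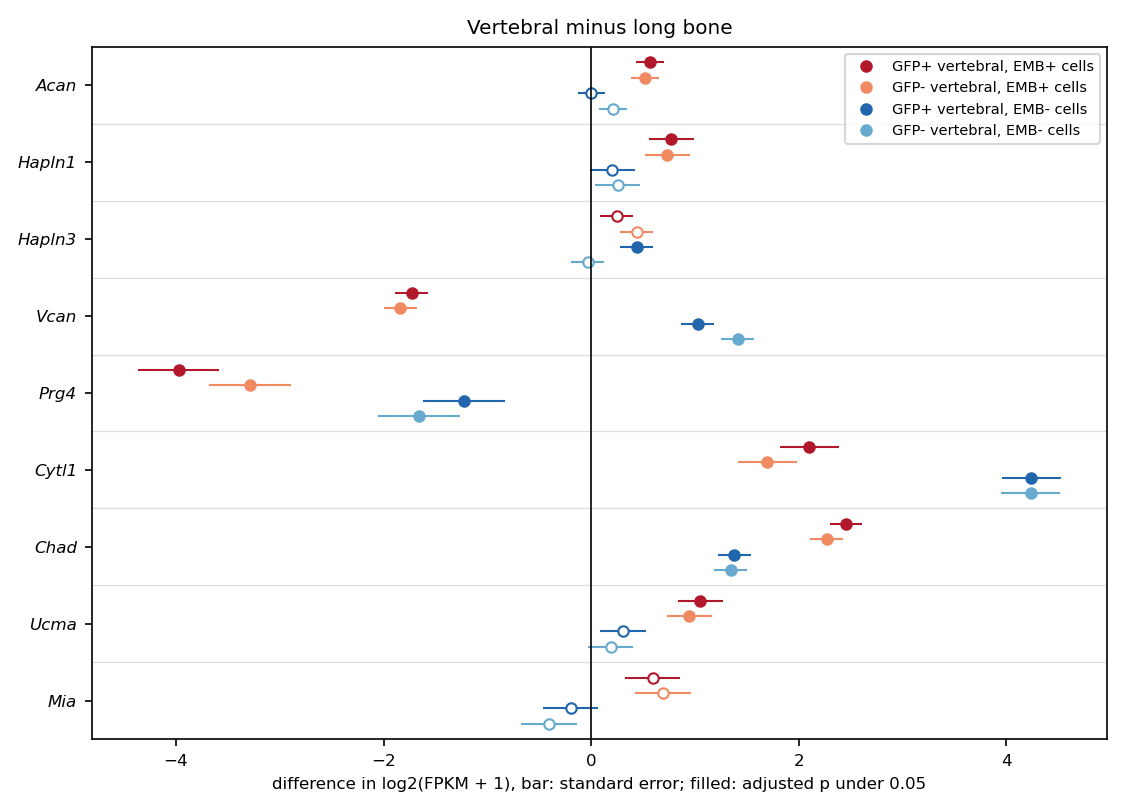
Difference between vertebral and long bone cells in log2(FPKM + 1) for each gene, with its standard error (n = 4 a group, filled points have an adjusted p under 0.05 in limma). Vcan lies left of 0 in EMB+ and right of 0 in EMB- cells, Prg4 lies left of 0 and Cytl1 and Chad right of 0 in all 4 comparisons.

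The enzymes and transporters that build chondroitin sulfate chains were mostly higher in EMB+ vertebral cells. Of 21 genes, 14 were higher and 2 lower in vertebral GFP+, 16 and 2 in vertebral GFP-, and 12 and 0 in long bone EMB+ cells, with median changes of 0.80, 0.87 and 0.47. Of all genes, 42.1%, 41.7% and 17.5% were higher. After median-ratio scaling the counts were 12 and 2, 12 and 2, and 12 and 0, and in the fit of long bone libraries only 8 were higher. Ugdh, whose enzyme makes the glucuronic acid donor, stood at 149 ± 19.0 FPKM in vertebral GFP+ EMB+ and 40.3 ± 4.68 in EMB- cells. It rose there by 1.86 (SE 0.12, adjusted p = 1.06e-11), by 2.13 in vertebral GFP- and by 0.88 in long bone cells. Slc26a2, the sulfate transporter of chondrocytes, rose by 2.03, 1.89 and 1.43 in the same order, and Slc35d1, which carries nucleotide sugars into the endoplasmic reticulum, by 1.88, 2.11 and 1.15. B4galt7, which adds the first galactose of the linker, rose by 1.14 in vertebral GFP- cells, and Papss1, which makes the sulfate donor, by 0.77 in long bone. The 2 lower genes in vertebral cells, named after their values were seen, were Chst3, a chondroitin 6-sulfotransferase, with -1.89 and -2.30, and Csgalnact2, an enzyme that starts and extends chains, with -0.50 and -0.91.

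Genes of hyaluronan were split. Of 9 tested out of 10 found, 3 were higher and 3 lower in each vertebral lineage and 2 and 3 in long bone EMB+ cells, and after median-ratio scaling 1 and 5, 1 and 4, and 1 and 3. In the fit of long bone libraries only, 1 was higher and 2 lower, so not every long bone change named below kept its call. Tnfaip6, whose protein binds hyaluronan, fell with changes of -1.64, -1.48 and -0.69 in vertebral GFP+, vertebral GFP- and long bone cells. Layn, a hyaluronan receptor, fell with -0.80 and -1.41 in vertebral cells, while Cemip, which takes part in hyaluronan breakdown, rose by 1.21 and 0.97. In long bone the hyaluronan synthase Has1 fell with -1.50 and the receptor Cd44 with -1.17, and Hyal2 rose by 0.45. Of 8 tested proteases of aggrecan and versican and their inhibitor, 4 were higher and 0 lower in vertebral GFP+, 5 and 1 in vertebral GFP-, and 3 and 0 in long bone EMB+ cells, beside the same shares of all genes, so that the vertebral GFP+ count lay near the background. After median-ratio scaling these became 2 and 2, 2 and 2, and 3 and 0, so not every rise named below for vertebral GFP+ cells kept its call. Mmp13, a collagenase that is also on the hypertrophic list, rose by 2.27, 3.95 and 1.78. Adamts1 rose by 1.20 and Adamts15 by 0.63 in vertebral GFP+ cells, Adamts9 rose by 0.99 and Mmp3 fell with -1.56 in vertebral GFP- cells, and Adamts9 and Adamts4 each rose by 1.13 in long bone.

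Among the relatives of the 9 genes, only Bcan and Hapln4 passed the filter of the 4 other lecticans and link proteins. Both were higher in long bone EMB+ cells, Hapln4 by 1.66 (SE 0.23, adjusted p = 2.66e-06), with 6.01 ± 2.61 FPKM against 1.14 ± 0.527, and Bcan by 0.92 (SE 0.26, adjusted p = 0.00705). In the fit of long bone libraries only, 1 of the 2 passed. Hapln4 was also higher in vertebral GFP- EMB+ cells, by 0.70 (SE 0.23, adjusted p = 0.0135), and not after median-ratio scaling. Cartilage collagens and their partners rose in 9 of 11 cases and fell in 1, Col2a1, in each vertebral lineage, and rose in 8 in long bone, with medians of 1.26, 1.25 and 0.51; in the fit of long bone libraries only 2 rose. After median-ratio scaling 8 rose and 1 fell, 8 and 2, and 8 and 0. Col2a1 changed by -0.34 and -0.45 in vertebral GFP+ and GFP- cells while Col11a2 rose by 1.46 and 1.25 and Col9a3 by 1.72 and 2.01. In vertebral GFP+, vertebral GFP- and long bone cells Sox9, the transcription factor of chondrocytes, rose by 0.67 (SE 0.16, adjusted p = 0.00122), 0.63 (SE 0.16, adjusted p = 0.00178) and 0.49 (SE 0.16, adjusted p = 0.0186), but 0 of the 3 Sox genes tested passed in vertebral cells after median-ratio scaling, and 0 of the 3 in long bone in the fit of long bone libraries only. Sox6, a partner of Sox9, fell in long bone with -0.73 (SE 0.24, adjusted p = 0.0179), and without long bone EMB- replicate 4 none of the 3 was lower.

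Likeness was measured as Pearson's r of log2(FPKM + 1) over all 24 libraries, among 6893 genes with a mean FPKM of 5 or more (6894 for Hapln3), and is a description, since all libraries share the 6 groups. Acan was most like Hsp90b1 (0.968), Col9a2 (0.967) and Steap1 (0.967), and Hapln1 most like Tmem30a (0.977), Fam20b (0.977) and Slc35e3 (0.966). The values for Hapln3 were lower, with Slc35b2 at 0.904, Mall at 0.898 and Rab28 at 0.886. Vcan was most like Osr2 (0.974), Cpq (0.968) and Gas1 (0.966), and Prg4 most like Mfap2 (0.940), Igfbp4 (0.939) and Phlda3 (0.935). The nearest genes to Cytl1 were Col2a1 (0.950), Tle1 (0.949) and Ngef (0.945), those to Chad were Anxa8 (0.972), Dusp1 (0.968) and Eps8l2 (0.962), and those to Ucma were Ier2 (0.941), Id1 (0.938) and Ubtd1 (0.930). Mia was most like Srp14 (0.954), Sub1 (0.945) and Nop10 (0.943). With the group means taken out, r of Vcan became 0.475 with Osr2, -0.168 with Cpq and -0.143 with Gas1. For the partners of the other genes it then ran from 0.425 (Prg4 and Phlda3) to 0.952 (Mia and Nop10).

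Taken pairwise among the 9 genes, r over the 24 libraries ran from -0.845 for Acan and Vcan to 0.916 for Acan and Hapln1. With the group means taken out, these became 0.125 and 0.426. Ucma and Mia had the highest value within groups, 0.956, and both were highest in long bone EMB- replicate 4 among the libraries of that group.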

How the data were processed

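RNA of sorted cells was copied for 24 libraries with SMART-Seq v4 and tagged with Nextera XT, as the labels' protocols give it, and these kits do not mark the strand. Reads went through bcl2fastq 2.19, STAR 2.5.2 and Cufflinks 2.1.1 on GRCm38, per the submitters' processing notes. The authors deposited FPKM per gene, and no read counts were used here, so depth is unknown and no counting interval can be given. Cufflinks estimates can be shared out between overlapping genes, which touches Chad, Prg4, Mia, Vcan and Hapln1.

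Of 22053 entries, 46 that repeated an identifier, 56 that repeated a symbol and 3 with a failed estimate were left out, which kept 21948. limma 3.58.1 (R 4.3.3) was fitted to log2(FPKM + 1) as 6 group means with trend and robust empirical Bayes, on 11767 genes that reached an FPKM of 1 in 4 libraries or more. Its p-values are two-sided and were adjusted by Benjamini-Hochberg over these genes. An adjusted p printed alone in brackets is from the same kind of fit. Ratios were tested with scipy 1.17.1 (Python 3.11.15), and the fit was tested on simulated data. Gene positions are those of the deposited data, which equal GENCODE M21 except for Hapln1. Distances and overlaps between genes are those of GENCODE M21, and promoters those of RefSeq.

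Groups follow the cell type label. The members and gene lists were chosen with earlier results of these data known. From each pathway list up to 3 genes per comparison with the smallest adjusted p were named. Same-numbered vertebral libraries deviated together between GFP+ and GFP- cells, with correlations of 0.169 to 0.337 in EMB+ and 0.130 to 0.292 in EMB- cells, and between EMB states of GFP- cells (0.135 to 0.236), but not in every pair of GFP+ cells (0.0971 to 0.279) or of long bone cells (-0.0969 to 0.296), which were matched by the codes in their titles. Alternatives were pseudocounts of 0.1 and 5, no filter and a filter at 5 FPKM, median-ratio scaling over genes above 5 FPKM in every library, fits of the compared groups, fits without the 4 libraries with conflicting labels, a replicate block and leaving out each library.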

Additional observations from a re-analysis of the deposited data

Results flagged for a closer look

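In 66 groups of 4 libraries, 2 had 1 library far from the other 3, and chance flags about 1 in 20 groups. Both were long bone EMB- replicate 4. Mia stood at 1699 FPKM there against 402 to 579 in the other 3 libraries, and the ratio of Acan to Hapln1 was 2.48 against 0.983 to 1.01. In the same library genes with transcripts of 1000 bases or fewer lay a median of 0.69 above the group mean and those of 5000 bases or more a median of -0.31; the part of transcript length in both values was not tested.

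A further 5 values were flagged because the change between EMB+ and EMB- cells differed between vertebral GFP- and long bone cells in a test of the difference itself (limma, adjusted over 11767 genes, 4 libraries a group). The difference was -3.26 (SE 0.23, adjusted p = 1.65e-10) for Vcan, -2.54 (SE 0.40, adjusted p = 4.16e-05) for Cytl1 and -1.63 (SE 0.56, adjusted p = 0.0296) for Prg4. It was 0.93 (SE 0.22, adjusted p = 0.00296) for Chad and 1.10 (SE 0.38, adjusted p = 0.0301) for Mia. Vcan, Cytl1 and Chad passed in every alternative run, while Prg4 and Mia did not pass in some of them, as given below.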

How the results depend on the processing

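No value that passed, in the fit of all libraries or in an alternative run, had the other sign in the counterpart. Of the single-gene values, 690 kept direction and side of the threshold, 21 passed anew, 13 no longer passed and 5 that did not pass changed sign, and with 1 library left out 2300, 26, 23 and 27 did so. The 5 all changed sign after median-ratio scaling: Chad -0.16 (EMB in vertebral GFP-), Mia 0.11 and Hapln3 0.19 (vertebral GFP+ and GFP- against long bone, EMB- cells), Ucma 0.0036 (EMB change of GFP+ minus GFP-) and Acan -0.015 (EMB change of GFP- minus long bone). The ratio of Acan to Hapln1 in long bone ran from -0.26 to 0.18 with 1 library left out and was above 0 only without long bone EMB- replicate 4; the other ratios kept their direction, and no ratio passed after adjustment. The number of the 9 genes that passed moved as follows, and the cause was not tested. GFP+ against GFP- EMB- cells had 0, and 1 with pseudocount 5 (Vcan), after median-ratio scaling (Hapln3), in the fit of the compared groups (Prg4) and with the replicate block (Hapln3). Long bone EMB+ against EMB- had 4, and 1 in the fit of the compared groups, which holds 8 libraries. The EMB change of vertebral GFP- minus long bone had 5, and 3 with no filter and 3 in the fit of the compared groups, in both cases without Prg4 and Mia. The EMB change of vertebral GFP+ minus GFP- had 0, and 1 in the fit of the compared groups (Hapln3) and with the replicate block (Prg4). With 1 library left out the numbers ran from 7 to 9 for EMB in vertebral GFP+, 8 to 8 in vertebral GFP- and 4 to 6 in long bone cells, 0 to 0 and 0 to 1 for GFP in EMB+ and EMB- cells, 6 to 8 and 4 to 5 for vertebral GFP+ against long bone in EMB+ and EMB- cells, 6 to 9 and 4 to 5 for vertebral GFP-, 0 to 1 for the EMB change of GFP+ minus GFP- and 4 to 7 for that of GFP- minus long bone. Values that changed sign with 1 library left out ran from -0.30 to 0.27 for Ucma (EMB in long bone), -0.0081 to 0.10 for Hapln1 and -0.0028 to 0.24 for Vcan (GFP in EMB+ cells), -0.12 to 0.061 for Hapln1, -0.13 to 0.077 for Cytl1 and -0.031 to 0.10 for Chad (GFP in EMB- cells), -0.11 to 0.10 for Acan, -0.070 to 0.42 for Hapln1 and -0.44 to 0.25 for Mia (vertebral GFP+ against long bone EMB- cells), -0.019 to 0.47 for Hapln1, -0.15 to 0.085 for Hapln3, -0.070 to 0.50 for Ucma and -0.65 to 0.038 for Mia (vertebral GFP-), and -0.022 to 0.16 for Hapln1 and -0.082 to 0.041 for Ucma (EMB change of GFP+ minus GFP-). Over all genes, calls fell from 247 to 136 with the stricter filter (GFP in EMB+ cells), from 5883 to 3248 (EMB in vertebral GFP+) and from 3503 to 2281 (EMB change of GFP- minus long bone) after median-ratio scaling and from 3942 to 2059 in the fit of long bone libraries only, and rose from 573 to 1150 in the fit of the compared groups and to 900.0 without long bone EMB- replicate 4 (EMB change of GFP+ minus GFP-).

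The replicate number as a block, where the numbers do not pair every library, gave adjusted p = 0.0397 for Hapln3 (EMB in vertebral GFP+), 0.00290 for Cytl1 and 0.0490 for Mia (EMB in long bone), 0.0419 for Prg4 (EMB change of GFP+ minus GFP-), and 0.0313 for Acan and 0.00395 for Ucma (EMB change of GFP- minus long bone), none of which passed without the block. Where the numbers pair the libraries it changed the call of Hapln3 between GFP+ and GFP- EMB- cells and no other. For vertebral against long bone EMB+ cells no paired analysis was run. Every long bone EMB+ title carries the number 1, and the title codes were used to match libraries within long bone only. FPKM with no counts leaves the precision of low genes, such as Vcan in vertebral EMB+ cells, unknown.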
